A study of Mus musculus with 13 samples.

Results

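Open chromatin regions on mouse chromosomes 14 and 15 were described in a series that measured open chromatin and messenger RNA from small numbers of E14 embryonic stem cells. All peaks on either chromosome in the 8 per-library ATAC peak lists were taken, 8169 on chromosome 14 and 15073 on chromosome 15, which made 23242 of 279669 peaks. Overlapping peaks of different lists merged into 3374 and 5636 regions, of 107851 in all. Each chromosome was divided into 10 windows of equal length (12.5 Mb on chromosome 14 and 10.4 Mb on chromosome 15), numbered from the centromeric end, and a peak or gene was placed by its midpoint. The chromosomes were chosen because the share of a list's peaks that they hold differed between experiment 2 and experiment 1, so all values of that contrast are given as a description. Counts and calls of its edgeR fit stand beside their background and support nothing. Beside the peaks stand the genes that averaged at least 10 CPM (counts relative to the library's total count) over the 4 compared libraries, 186 of 864 genes on chromosome 14 and 313 of 905 on chromosome 15, of 6541 such genes in all.

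E14 is an embryonic stem cell line of the 129/Ola mouse background, here kept in medium with serum and leukemia inhibitory factor; the labels name no other genotype or treatment for any library. In the low-input protocol, Tn5 transposase cut accessible DNA in permeabilized cells, and messenger RNA was then taken from the same lysate with oligo-dT beads. Experiment 1 used 10000 and 20000 cells and experiment 2, on another day, 5000, 10000 and 20000 cells, for 5 pairs of an ATAC and an mRNA library. The benchmark was Omni-ATAC, a standard ATAC method, with 1 library each from 5000, 10000 and 50000 cells. The labels do not say whether libraries of an experiment came from separate cultures, so the spread between them may be technical.

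ATAC-seq marks DNA that nucleosomes leave accessible, mostly promoters and enhancers, and a peak list holds the places where cuts pile up enough to be called. Promoters of housekeeping genes are rich in CG dinucleotides and are accessible in most cell types, while distal regions differ more between cell states. Embryonic stem cells keep an open chromatin landscape around the genes of pluripotency, and both proximal and distal regions appear in their peak lists.

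The promoters of 8 genes are shown because a region of the authors' unified peak list covers bases just before their start. Psme2 (a subunit of the PA28 proteasome activator) and Tarbp2 (the RNA-binding partner of Dicer) had a peak in all 8 lists there. Psmd6 (a subunit of the 26S proteasome lid), Rtraf (an RNA-binding factor), Ppif (mitochondrial cyclophilin D), Tkt (transketolase of the pentose phosphate pathway) and Tinf2 (the telomere protein TIN2), all on chromosome 14, had one in the 3 lists of experiment 2 and in neither list of experiment 1. Racgap1 (a GTPase-activating protein of cytokinesis), on chromosome 15, had the same pattern. Omni-ATAC lists also had a peak within 1000 bp of these starts, 3 lists at Psmd6 and Ppif and 2 lists at Rtraf, Tkt, Tinf2 and Racgap1. Each sequence is the 250 bases before the transcription start from RefSeq (GRCm38.p6), 5′ to 3′ on the gene's strand, and so lies outside the transcribed gene. The promoter table matched 145 of the 186 genes on chromosome 14 and 170 of the 313 on chromosome 15. Capitals mark a GC box (GGGCGG) or a CCAAT box (CCAAT), on either strand, so that CCGCCC and ATTGG are their reverse complements, and boxes that overlap run together.
Psme2: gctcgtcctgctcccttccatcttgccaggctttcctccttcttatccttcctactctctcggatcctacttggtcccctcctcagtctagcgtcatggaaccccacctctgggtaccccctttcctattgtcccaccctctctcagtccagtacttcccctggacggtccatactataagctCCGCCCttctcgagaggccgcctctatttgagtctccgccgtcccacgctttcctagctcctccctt
Psmd6: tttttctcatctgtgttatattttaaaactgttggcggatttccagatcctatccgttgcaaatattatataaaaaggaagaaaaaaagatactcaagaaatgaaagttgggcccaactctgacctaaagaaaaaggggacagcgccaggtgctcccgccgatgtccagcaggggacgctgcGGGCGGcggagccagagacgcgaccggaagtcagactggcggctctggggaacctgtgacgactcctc
Rtraf: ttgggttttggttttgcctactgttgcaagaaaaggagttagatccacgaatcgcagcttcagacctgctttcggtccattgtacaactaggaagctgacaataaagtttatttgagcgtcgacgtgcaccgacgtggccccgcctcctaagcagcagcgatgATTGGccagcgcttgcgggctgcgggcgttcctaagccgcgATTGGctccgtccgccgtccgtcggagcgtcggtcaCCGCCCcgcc
Ppif: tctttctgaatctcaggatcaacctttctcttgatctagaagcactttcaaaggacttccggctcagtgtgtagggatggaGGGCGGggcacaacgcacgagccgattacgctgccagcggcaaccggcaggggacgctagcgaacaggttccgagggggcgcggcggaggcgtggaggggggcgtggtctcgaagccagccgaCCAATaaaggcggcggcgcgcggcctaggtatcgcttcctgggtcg
Tkt: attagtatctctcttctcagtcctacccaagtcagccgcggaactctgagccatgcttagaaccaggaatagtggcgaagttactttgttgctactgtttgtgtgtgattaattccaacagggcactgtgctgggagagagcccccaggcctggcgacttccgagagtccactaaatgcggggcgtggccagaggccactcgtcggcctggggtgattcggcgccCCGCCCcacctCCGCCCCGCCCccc
Tinf2: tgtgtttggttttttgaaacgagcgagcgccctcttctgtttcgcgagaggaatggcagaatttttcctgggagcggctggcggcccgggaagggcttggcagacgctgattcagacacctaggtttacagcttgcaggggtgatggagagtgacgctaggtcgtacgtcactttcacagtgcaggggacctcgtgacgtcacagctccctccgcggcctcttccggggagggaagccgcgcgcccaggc
Tarbp2: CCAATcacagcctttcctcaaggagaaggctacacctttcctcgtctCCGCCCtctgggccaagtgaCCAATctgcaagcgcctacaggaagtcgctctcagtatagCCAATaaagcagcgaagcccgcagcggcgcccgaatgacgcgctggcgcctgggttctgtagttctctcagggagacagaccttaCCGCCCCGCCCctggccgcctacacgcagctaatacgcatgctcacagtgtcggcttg
Racgap1: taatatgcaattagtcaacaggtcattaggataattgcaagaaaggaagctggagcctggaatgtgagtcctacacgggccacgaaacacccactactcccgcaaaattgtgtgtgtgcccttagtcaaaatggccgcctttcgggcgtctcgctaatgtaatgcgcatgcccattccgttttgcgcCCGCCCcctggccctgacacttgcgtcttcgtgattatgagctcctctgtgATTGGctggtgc

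On the minus strand lay chr14:55591102-55591351 for Psme2, chr14:14120946-14121195 for Psmd6, chr14:19823824-19824073 for Rtraf, chr14:55681818-55682067 for Tinf2 and chr15:99651657-99651906 for Racgap1. On the plus strand lay chr14:25693920-25694169 for Ppif, chr14:30548881-30549130 for Tkt and chr15:102517942-102518191 for Tarbp2. The RefSeq start of Psmd6 is 41 bases from the start in the count table, and the other starts were equal. GC boxes were found 3 times in Tkt and Tarbp2 and 1 time in Psme2, Psmd6, Rtraf, Ppif and Racgap1. CCAAT boxes were found 3 times in Tarbp2, 2 times in Rtraf, and 1 time in Ppif and Racgap1, and Tinf2 held neither in this window. Over all 32851 promoters of that length, 32.7% held a GC box and 33.8% a CCAAT box, against 27.1% and 29.8% of 1358 on chromosome 14 and 34.4% and 32.2% of 936 on chromosome 15. The E-box CACGTG and the octamer ATGCAAAT, searched in the same way, were in none of the promoters printed and in 6.02% and 1.60% of all promoters. These matches describe letters only. GC content of the printed sequences ran from 50.0% in Psmd6 to 62.8% in Ppif.

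The region over the Psme2 start spans chr14:55591035-55591781 (747 bp) and that over the Tarbp2 start chr15:102517834-102518781 (948 bp), the latter the widest region of chromosome 15 with a peak in all 8 lists. The regions found in experiment 2 were narrower, from 67 bp at Racgap1 to 243 bp at Tinf2. They covered 20 of the printed bases at Racgap1 and 229 at Tinf2.

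The depth of the mRNA libraries was 13727122 to 20426252 counts, so that 3 counts, the limit a count of 0 allows, correspond to 0.147 to 0.219 CPM. Read depth of the ATAC libraries is unknown, and the lists hold 9097 to 95457 peaks. All 10 listed embryonic stem cell markers had a mean of at least 10 CPM, with a summed level of 3526 to 3681 CPM in a library. Of 10 markers of differentiated lineages 0 reached 10 CPM. Their sum was 8.16 and 6.69 CPM in experiment 1 and 10.6, 14.4 and 11.4 CPM in experiment 2 (5000, 10000 and 20000 cells), with 1 to 4 of them at 0 in a library. Of 12 fibroblast markers 1 reached 10 CPM, with a mean of 17.3 CPM. The sum of all 12 was 34.6 and 37.1 CPM in the libraries of experiment 1 and 10.5 to 12.2 CPM in those of experiment 2. It thus rests in large part on 1 gene, and 4 to 8 of the markers were at 0 in a library. Both sums move with the experiment, as do the values below, and their part in them was not tested.

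Chromosome 14 held a larger share of the peaks in experiment 2 than in experiment 1. In experiment 1, 2.37% of the list from 10000 cells (95% Wilson interval 2.17 to 2.60, 448 peaks) and 2.51% of that from 20000 cells (2.33 to 2.70, 678 peaks) lay on chromosome 14. In experiment 2 the shares were 3.22% with 5000 cells (2.98 to 3.48, 600 peaks), 3.13% with 10000 cells (2.94 to 3.34, 936 peaks) and 3.07% with 20000 cells (2.92 to 3.22, 1519 peaks). Every share of experiment 2 was above both shares of experiment 1, and the intervals did not overlap. These intervals cover counting error only. The Omni-ATAC lists held 2.67%, 2.66% and 3.05% with 5000, 10000 and 50000 cells, between the experiments. The ratio of experiment 2 to experiment 1 was 1.32 at 10000 cells and 1.22 at 20000 cells.

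Chromosome 15 went the other way. Experiment 1 held 6.17% of its peaks there with 10000 cells (5.84 to 6.52, 1165 peaks) and 6.06% with 20000 cells (5.78 to 6.35, 1637 peaks). Experiment 2 held 5.16% with 5000 cells (4.85 to 5.49, 962 peaks), 5.17% with 10000 cells (4.93 to 5.43, 1545 peaks) and 5.05% with 20000 cells (4.86 to 5.25, 2502 peaks). All 3 shares of experiment 2 were below both of experiment 1, again without overlap of the intervals. Omni-ATAC gave 3.90% with 5000 cells (3.52 to 4.32, 355 peaks), 6.0% with 10000 cells and 5.27% with 50000 cells, a wider spread than within either experiment. The ratios were 0.838 at 10000 cells and 0.834 at 20000 cells.

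**Figure D1:**
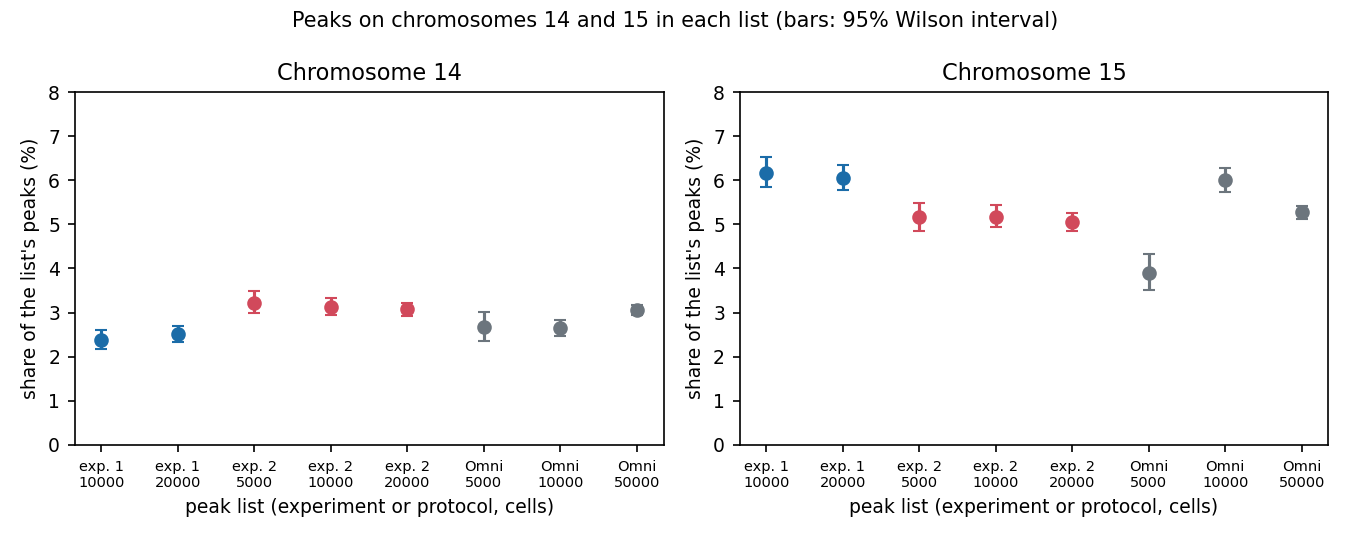
Share of each list's peaks on chromosome 14 (left) and chromosome 15 (right), in percent, for the 8 lists; points are shares and bars are 95% Wilson intervals. The 3 lists of experiment 2 lie at 3.07% to 3.22% on chromosome 14, above 2.37% and 2.51% in experiment 1, and at 5.05% to 5.17% on chromosome 15, below 6.06% and 6.17%.

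Averaged over both cell numbers, the ratio was 1.27 for chromosome 14 and 0.836 for chromosome 15. It was 1.28 for chromosome 8 and 0.942 to 1.19 for the other 17 chromosomes compared, chromosome X having 1.19. Chromosomes 14 and 8 were thus above that range and chromosome 15 below it. Peaks on chromosome 15 also made up a larger part of the covered length in experiment 1, 7.16% and 6.66% of the base pairs in peaks, against 5.53%, 5.23% and 5.19% in experiment 2 at 5000, 10000 and 20000 cells. On chromosome 14 covered length was 2.24% and 2.35% in experiment 1 and 3.04%, 3.01% and 3.07% in experiment 2.

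Along chromosome 14 the share of experiment 2 was higher in each of the 10 windows. The ratio of shares was above 1 in 10 of 10 windows at 10000 cells and in 10 of 10 at 20000 cells, with a mean over both cell numbers from 1.06 in window 8 to 1.51 in window 6. With 20 windows the share of experiment 2 was higher at both cell numbers in 90.0% of them, counting 1 window with no peak in experiment 1 at 10000 cells and so no ratio, and ratios of 0.924 and 0.854 occurred. In window 10 (chr14:112321728-124801919) the share was 0.254% and 0.289% of the list in experiment 1 (48 and 78 peaks at 10000 and 20000 cells) and 0.395% and 0.420% in experiment 2 (118 and 208 peaks), so that experiment 2 was higher at both cell numbers. In window 6 (chr14:62400961-74881151) it was 0.122% and 0.130% against 0.181% and 0.198%. Window 8 (chr14:87361344-99841535), which holds few genes (1.04 per Mb), had 0.0848% and 0.0962% against 0.0904% and 0.101%, with Wilson intervals of 0.0522 to 0.138 against 0.0621 to 0.131 at 10000 cells. The intervals of the experiments overlapped in all 10 windows at 10000 cells and in windows 1 to 9 at 20000 cells, so that window 10 at 20000 cells alone had separate ones. Window 3 (chr14:24960385-37440576) held the largest share of the chromosome's windows, 0.482% and 0.537% in experiment 1 and 0.636% and 0.644% in experiment 2. The 5000-cell list of experiment 2 was at 0.483% in window 1, 1.84 times the mean of experiment 1, and at 0.156% in window 4, 1.00 times that mean.

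Along chromosome 15 the shares of experiment 2 were lowest relative to experiment 1 in windows 4, 8, 9 and 10, and windows 8 and 10 are the densest in genes (26.8 and 22.2 per Mb). The ratio was below 1 at both cell numbers in 7 windows and above 1 at both in 0, and the mean over cell numbers ran from 0.771 in window 9 to 1.02 in window 3. In window 8 (chr15:72729519-83119450) the share was 1.62% in both lists of experiment 1 (1.45 to 1.81 and 1.48 to 1.78) and 1.31% and 1.25% in experiment 2 (1.19 to 1.44 and 1.16 to 1.35), without overlap of the intervals within a cell number. In window 9 it was 0.758% and 0.807% against 0.596% and 0.610%, with overlapping intervals at 10000 cells. In window 10 it was 1.42% and 1.32% against 1.12% and 1.08%. These 3 windows and window 4 (0.715% and 0.692% against 0.569% and 0.578%) had a mean ratio from 0.771 to 0.815. In windows 1 to 7, window 4 included, the intervals overlapped at both cell numbers. Window 1 stood near 1, with 0.318% and 0.281% against 0.315% and 0.273%. With 20 windows its parts differed. Ratios at 10000 and 20000 cells were 0.722 and 0.873 in chr15:1-5194966 and 1.13 and 1.00 in chr15:5194967-10389931. The 5000-cell list of experiment 2 had 1.35%, 0.574% and 1.19% in windows 8, 9 and 10, below both lists of experiment 1 in each.

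**Figure D2:**
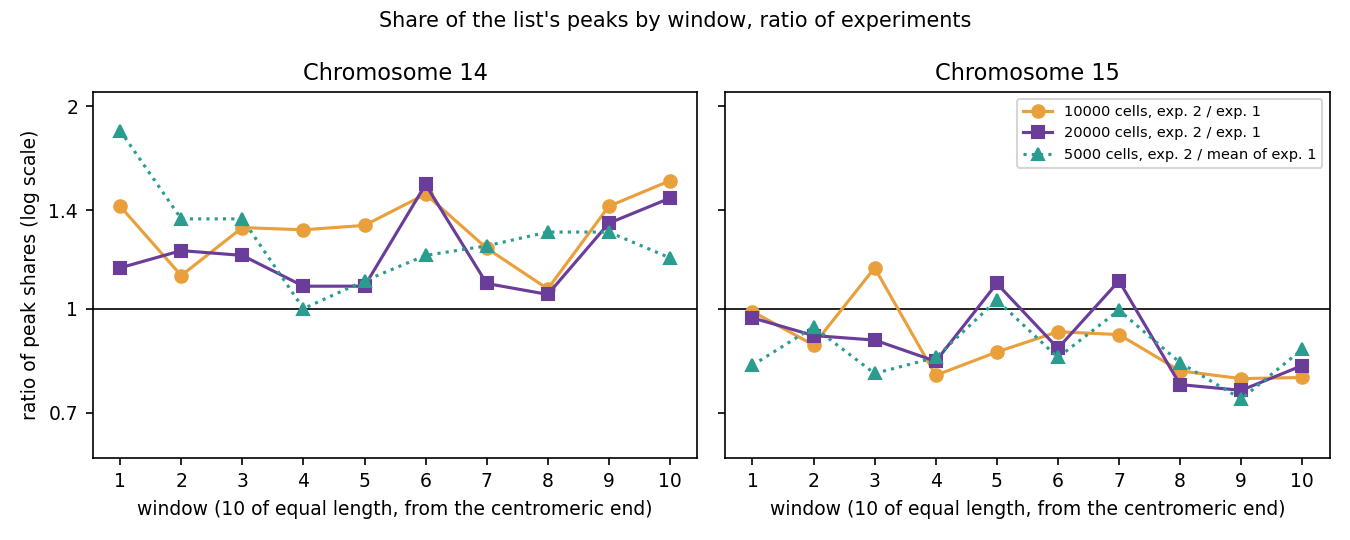
Ratio of the share of peaks, experiment 2 over experiment 1, in 10 windows of chromosome 14 (left) and chromosome 15 (right) on a log axis; circles are 10000 cells, squares 20000 cells, and triangles the 5000-cell list of experiment 2 over the mean of experiment 1. All circles and squares of chromosome 14 lie above 1, and those of windows 8 to 10 of chromosome 15 lie from 0.756 to 0.823.

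The lists of experiment 2 were longer than those of experiment 1, with 29870 against 18877 peaks at 10000 cells and 49508 against 27016 at 20000 cells. Most peaks that chromosome 14 showed in experiment 2 had no counterpart in experiment 1. At 10000 cells 63.7% of its 936 experiment 2 peaks overlapped no peak of experiment 1 (55.7% over all chromosomes), and at 20000 cells 64.1% of 1519 (57.7%). On chromosome 15 the shares were 50.3% and 50.1%. In the other direction, 22.5% and 14% of the experiment 1 peaks on chromosome 14 had no overlap in experiment 2, against 33.0% and 21.3% on chromosome 15 and 28.3% and 18.8% over all chromosomes. Over both cell numbers the value of chromosome 15 was 27.1%, and 14.9% with peaks of at least 50 bp. These shares come from the contrast that chose the chromosomes, so nothing is read from their distance to the background. Peaks without a counterpart had a median width of 9 to 13 bp and lay within 1000 bp of a transcription start less often than shared ones in the same list: 21.7% against 36.9% on chromosome 14 and 19.6% against 33.1% on chromosome 15, in the 20000-cell list of experiment 2.

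In the unified list, 518 regions lay on chromosome 14 and 1028 on chromosome 15, of 18310. A peak in all 8 lists overlapped 116 of them (22.4%) on chromosome 14 and 226 (22.0%) on chromosome 15, against 26.8% of all regions. Regions with a peak in all 3 lists of experiment 2 and in neither list of experiment 1 numbered 32 on chromosome 14 (6.18%) and 23 on chromosome 15 (2.24%), against 2.99% over all regions. The 20000-cell list of experiment 2 overlapped 100% of the unified regions on chromosome 14, 99.5% on chromosome 15 and 99.5% of all regions. The opposite pattern could therefore hardly occur, and was met by 0 regions on chromosome 14 and 1 on chromosome 15, chr15:73482017-73482111, of 12 in all. The transcription start nearest to it, 30449 bp away, was that of Dennd3. Besides the region at Psme2, the widest regions of chromosome 14 found in all 8 lists were chr14:21500205-21501217 (1013 bp), inside Kat6b, which encodes a histone acetyltransferase, and 435 bp from its start, and chr14:19750601-19751317 (717 bp), over the start of Nid2, which encodes the basement membrane protein nidogen 2. On chromosome 15 the next widest after that at Tarbp2 were distal: chr15:25761874-25762693 (820 bp), inside Myo10, which encodes an unconventional myosin, and 80605 bp from the nearest start, that of Retreg1, and chr15:75086266-75087047 (782 bp), 24902 bp from that of Ly6c2.

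Expression shifted in the same direction as the peak shares on both chromosomes. Expression shift here means the log2 fold change of edgeR between experiment 2 and experiment 1 over the libraries from 10000 and 20000 cells, 2 per experiment. Its median was 0.19 over the 186 genes of chromosome 14 (middle 50% of genes -0.06 to 0.41), -0.26 over the 313 genes of chromosome 15 (-0.49 to -0.05), and 0.01 over all 6541 genes. On chromosome 14, 133 genes were above 0 and 53 below; on chromosome 15, 66 were above and 247 below. The medians of the other chromosomes were -0.10 to 0.13, apart from 0.46 on chromosome 8. In a bulk library, fewer cells of a type and less RNA per cell cannot be told apart. The difference of log2(CPM + 1) within each cell number gave medians of 0.19 and 0.20 on chromosome 14 and -0.28 and -0.21 on chromosome 15, at 10000 and 20000 cells. For the 5000-cell library against the mean of experiment 1 it was 0.10 and -0.37, where the median of all genes was itself -0.10.

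CPM ranges of the experiments did not overlap for 92 genes of chromosome 14 that were higher in experiment 2 (49.5%, against 30.0% of all genes of at least 10 CPM) and for 26 that were lower (14%, against 28.6%). On chromosome 15 they numbered 31 (9.90%) and 183 (58.5%). With edgeR's quasi-likelihood test and a Benjamini-Hochberg adjusted p under 0.05, 46 of 411 tested genes of chromosome 14 were called higher (11.2%) and 11 lower (2.68%). On chromosome 15, 8 of 506 were called higher (1.58%) and 99 lower (19.6%). Over all 12523 tested genes 5.75% were called higher and 6.76% lower. The contrast chose the chromosomes, so these counts describe it and nothing is read from them against the background. They depended on single libraries: without the 10000-cell library of experiment 2, 22 genes of chromosome 14 were called higher and 50 of chromosome 15 lower, and 25 and 30 genes of chromosome 14 were called higher without the 20000-cell library of experiment 2 or the 10000-cell library of experiment 1.

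The shift of chromosome 14 was uneven along its length. The window median was 0.37 in window 2 (27 genes, 22 of them higher without overlap), 0.40 in window 3 (36 genes, 26 higher), 0.62 in window 9 (8 genes, all higher) and 0.37 in window 10 (10 genes, 6 higher), and 2, 2, 0 and 1 genes there were lower without overlap. Over all genes of at least 10 CPM the shares were 30.0% higher and 28.6% lower, and nothing is read from the counts against them. It was 0.20 in window 1 and 0.24 in window 8, with 7 and 4 genes. From window 4 to window 7 it was 0.04, 0.03, 0.00 and 0.01 (12, 51, 22 and 9 genes, of which 2, 13, 8 and 2 were higher and 2, 12, 5 and 1 lower without overlap), although the peak ratio there was 1.16 to 1.51. Across the 10 windows the peak ratio and the median shift had a Pearson r of 0.189 and a Spearman rho of 0.0912, a description of neighbouring windows of the same libraries.

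On chromosome 15 the 4 windows with the lowest ratio of experiment 2 to experiment 1 in peak share, which hold the largest shares in both experiments, also had the lowest median expression shifts. The median shift was -0.31 in window 8 (123 genes, 81 of them lower without overlap), -0.31 in window 9 (34 genes, 24 lower), -0.27 in window 10 (70 genes, 43 lower) and -0.28 in window 4 (21 genes, 13 lower), where 6, 2, 5 and 3 genes were higher without overlap. Over all genes 28.6% were lower and 30.0% higher, and nothing is read from the counts against these. Window 6 had -0.19 over 24 genes. Windows 1, 2, 3 and 5, with 13, 12, 4 and 7 genes, had 0.07, -0.07, -0.04 and -0.01, and window 7 had 0.22 over 5 genes. Pearson r over the 10 windows was 0.911 and Spearman rho 0.900, where the 2 measures share the cells of each library pair and differ in gene number per window. No p is given, since the chromosomes were chosen on this contrast.

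**Figure D3:**
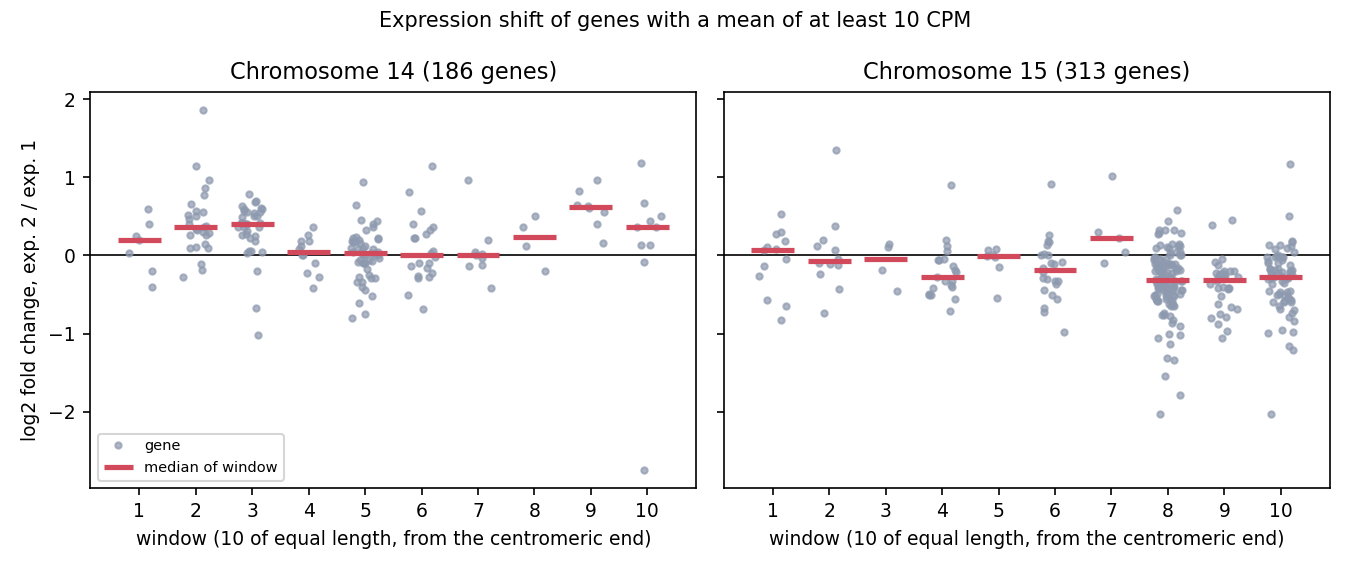
Log2 fold change of each gene averaging at least 10 CPM, experiment 2 over experiment 1, by window of chromosome 14 (left, 186 genes) and chromosome 15 (right, 313 genes); grey points are genes, spread sideways at random, and red bars are window medians. Red bars of chromosome 14 are highest in window 9 (0.62) and near 0 in windows 4 to 7, and those of chromosome 15 lie at -0.27 to -0.31 in windows 8 to 10.

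The 8 genes of window 9 of chromosome 14, looked at after their values were seen and not all reported here, included Rbm26 with a shift of 0.16, Spry2 with 0.40 (0.25 without the 20000-cell library of experiment 1) and Uchl3 with 0.64. Uchl3, a ubiquitin hydrolase, was at 149 and 145 CPM in experiment 1 and at 221 and 239 CPM in experiment 2 at 10000 and 20000 cells, and at 219.6 CPM with 5000 cells. Spry2, which restrains receptor tyrosine kinase signalling, was at 43.7 and 34.3 against 50.3 and 52.2 CPM. Its 5000-cell value of 43.7 CPM equals the higher value of experiment 1, whereas Uchl3 kept the order of the experiments with 5000 cells too.

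Among genes of chromosome 14 whose ranges did not overlap, Top2b, Clybl, Fgf17, Usp54 and Enox1 were higher in experiment 2 by the most. Top2b, the beta form of topoisomerase II, was at 5.90 and 5.09 CPM in experiment 1 and at 20.8 and 19.0 CPM in experiment 2, with 14.2 CPM at 5000 cells (log2 fold change 1.86 ± 0.24, SE by edgeR, n = 2 libraries per experiment). Clybl, a mitochondrial lyase, was at 7.50 and 7.76 against 15.6 and 19.0 CPM (1.18 ± 0.23). Fgf17, a fibroblast growth factor, was at 10.1 and 7.09 against 14.8 and 23.1 CPM (1.14 ± 0.25). In these 3 genes each library of experiment 2, the 5000-cell library included, was above both of experiment 1. Usp54, a member of the ubiquitin-specific peptidase family, was at 4.59 and 9.10 against 15.7 and 14.5 CPM (1.14 ± 0.28), but at 8.05 CPM with 5000 cells, between the values of experiment 1. Its fold change was 0.73 without the 10000-cell library of experiment 1 and 1.73 without the 20000-cell library of experiment 1. Enox1, a cell-surface oxidase, was at 10.6 and 8.50 against 17.8 and 19.7 CPM (0.97 ± 0.22).

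The genes of chromosome 14 lower in experiment 2 by the most ran against the chromosome's median shift. Timm8a2, related to a chaperone of mitochondrial protein import, was at 23.7 and 23.4 CPM in experiment 1 and at 3.03 and 3.97 CPM in experiment 2, with 3.04 CPM at 5000 cells (-2.74 ± 0.25). It lies in window 10, whose median was above 0. Mmrn2, an extracellular matrix protein of blood vessels, was at 13.6 and 14.4 against 5.55 and 8.32 CPM (-1.01 ± 0.26). Zfhx2, a zinc finger homeobox factor, was at 15.2 and 12.6 against 6.84 and 9.11 CPM (-0.80 ± 0.25). Rnf17, a Tudor-domain protein of germ cells, was at 14.5 and 17.0 against 10.7 and 8.08 CPM (-0.75 ± 0.24). Clu, the secreted chaperone clusterin, was at 14.3 and 12.2 against 6.64 and 9.84 CPM (-0.68 ± 0.26), was not called at an edgeR adjusted p under 0.05, and stood at -0.42 without the 10000-cell library of experiment 2. In all 5 genes every library of experiment 2, with 5000 cells too, was below both of experiment 1. Clu nevertheless had a peak within 1000 bp of its start in all 3 lists of experiment 2 and in neither of experiment 1.

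On chromosome 15 the largest differences were towards lower expression in experiment 2. Soat2, which esterifies cholesterol, was at 43.2 and 53.3 CPM in experiment 1 and at 12.4 and 11.2 CPM in experiment 2, with 14.1 CPM at 5000 cells (-2.03 ± 0.18). Rhpn1 was at 24.0 and 24.0 against 5.09 and 6.66 CPM (-2.02 ± 0.23). Pdgfb, a platelet-derived growth factor chain, was at 21.8 and 19.3 against 5.87 and 6.07 CPM (-1.78 ± 0.23). The 5000-cell library of experiment 2 had 8.05 CPM of Rhpn1 and 8.65 CPM of Pdgfb, below experiment 1 as well. Dennd3, an exchange factor for Rab GTPases, was at 48.2 and 37.9 against 15.3 and 14.3 CPM (-1.54 ± 0.18), while its start had a peak in all 8 lists. Shisa8, a transmembrane protein, was at 34.9 and 30.2 against 11.1 and 14.7 CPM (-1.33 ± 0.20). Of these 5 genes, 4 lie in window 8.

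Higher in experiment 2 on chromosome 15 by the most was Mtmr12, a phosphatase-like adaptor of phosphoinositide metabolism, at 7.36 and 6.09 CPM in experiment 1 and 17.5 and 16.8 CPM in experiment 2 (1.35 ± 0.24). Ppp1r1a, an inhibitor of protein phosphatase 1, was at 9.18 and 15.5 against 27.6 and 28.1 CPM (1.17 ± 0.22). Ndrg1, a stress-responsive gene, was at 6.99 and 6.83 against 15.1 and 12.9 CPM (1.02 ± 0.25). All 3 were also higher with 5000 cells (12.3, 27.1 and 13.2 CPM) than in either library of experiment 1. Aard was at 35.3 and 39.9 against 73.5 and 68.4 CPM (0.92 ± 0.15). Dpys, dihydropyrimidinase of pyrimidine breakdown, was at 16.0 and 17.7 against 33.0 and 29.9 CPM (0.90 ± 0.18), and its start had a peak in all 3 lists of experiment 2 and in neither of experiment 1.

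**Figure D4:**
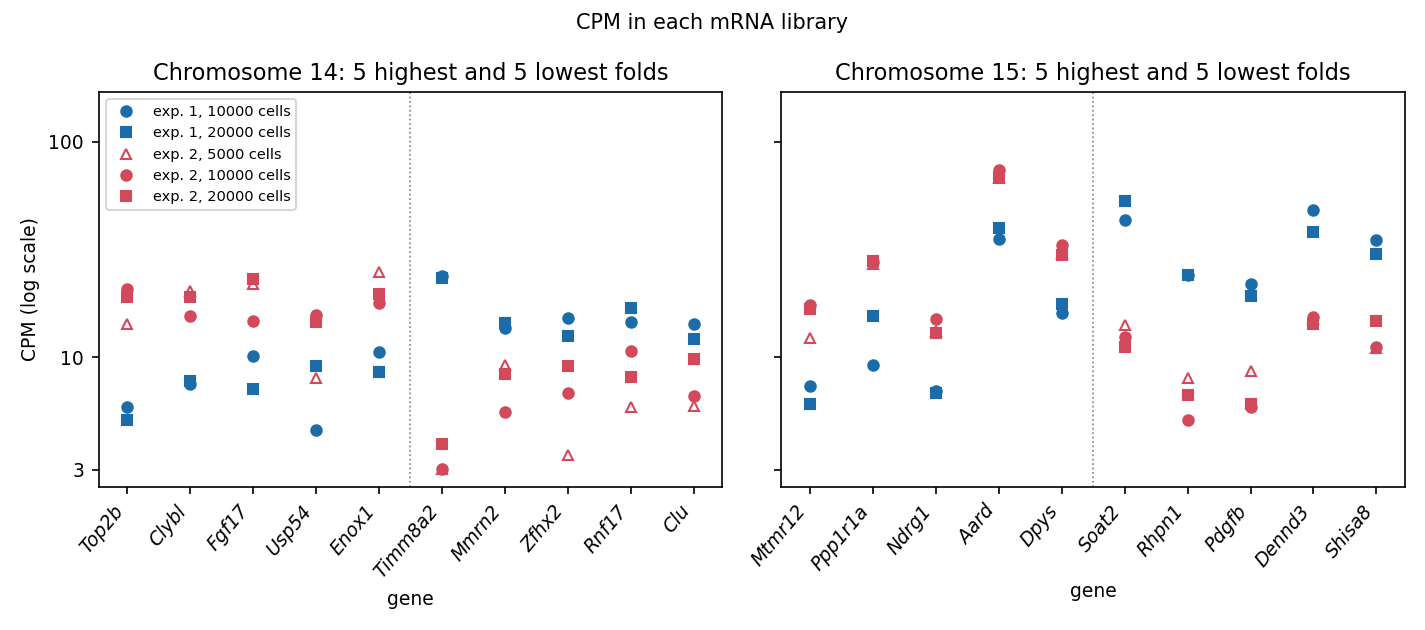
CPM on a log axis of the 5 genes that differed most upwards and the 5 that differed most downwards in experiment 2 on chromosome 14 (left) and chromosome 15 (right); blue points are libraries of experiment 1, red points those of experiment 2, circles 10000 cells, squares 20000 cells and open triangles 5000 cells. The 5000-cell triangle of Usp54 (8.05 CPM) lies among the blue points, and the other triangles lie on the side of experiment 2.

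A list of regulators of development and chromatin and of abundant genes on each chromosome is described next. Its calls come from the contrast that chose the chromosomes, and nothing is read from them on either chromosome. On chromosome 14, 22 of 25 listed genes were tested, of which 3 were called higher and 0 lower, with a median shift of 0.03 (5.75% and 6.76% of all tested genes were called). The 3 were Zic2, a transcription factor of the neural plate (0.437 and 1.07 CPM against 4.0 and 4.75 CPM, but 0.895 CPM with 5000 cells), Ipo5, a nuclear import receptor (132 and 149 against 193 and 187 CPM), and Mycbp2, a ubiquitin ligase (13.6 and 15.3 against 19.6 and 24.6 CPM). Klf5, a factor of the pluripotent state, was at 106 and 95.8 against 70.9 and 104 CPM, and Bmp4, a signalling ligand, at 59.7 and 43.1 against 43.3 and 44.5 CPM, so that both experiments overlapped. Hnrnpc, which binds nascent RNA, was at 251 and 229.6 against 239 and 245 CPM. Otx2 and Gata4, genes of differentiating cells, stayed at or below 1.53 CPM in each library.

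On chromosome 15, 29 of 30 listed genes were tested, of which 1 was called higher and 4 lower, with a median shift of -0.10 (5.75% and 6.76% of all tested genes, 1.58% and 19.6% of those of the chromosome). Myc, the growth regulator in window 6, was at 55.2 and 44.6 CPM in experiment 1 and at 26.7 and 23.9 CPM in experiment 2, with 25.0 CPM at 5000 cells (-0.98 ± 0.17), and its start had a peak in 7 of 8 lists. Rarg, a retinoic acid receptor, was at 75.8 and 72.3 against 43.9 and 38.9 CPM (-0.84 ± 0.15). Pabpc1, which binds poly(A) tails, was at 4258 and 3752 against 3003 and 2616 CPM (-0.51 ± 0.11), and Ywhaz, a 14-3-3 protein, at 153 and 132 against 115 and 99.7 CPM (-0.41 ± 0.13). These 4 were lower in every library of experiment 2. Sub1, a transcription coactivator, was called higher, with 593 and 634 against 838 and 759 CPM. Lifr, the receptor of leukemia inhibitory factor, was at 36.1 and 50.1 against 55.4 and 42.2 CPM, with overlap. Reads of Rpl3, Rpl8, Tuba1b, Tpt1 and Timm8a2 can match near-identical copies elsewhere, so their counts are uncertain.

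The limit of 10 CPM admitted Fam149b (10.0 CPM) and Stk24 (10.1 CPM) on chromosome 14 and left out Nr1d2 (9.76 CPM) and Kpna3 (9.87 CPM), whose shifts were 0.77, 0.67, 0.01 and 0.37. That of Fam149b was 0.48 without the 10000-cell and 1.16 without the 20000-cell library of experiment 1. With 1 library left out, Nr1d2 ran from -0.25 to 0.33 and so changed sign (-0.25 without the 20000-cell library of experiment 1), and Kpna3 ran from 0.14 (without the 10000-cell library of experiment 1) to 0.67 (without the 20000-cell library of experiment 1). On chromosome 15 it admitted Slc4a8 (10.0 CPM) and Kmt2d (10.1 CPM), with -0.79 and -0.30, and left out Lima1 (9.75 CPM) and Ccdc134 (9.93 CPM), with 0.28 and -0.87. With 1 library left out, Kmt2d ran from -0.39 to -0.18 (the latter without the 20000-cell library of experiment 1) and Lima1 from 0.14 (without that of experiment 2) to 0.43.

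Promoter accessibility was next described gene by gene. A peak within 1000 bp of the start was present in experiment 1 for 49.5% and 57.5% of the 186 genes of chromosome 14 (10000 and 20000 cells) and in experiment 2 for 57.5%, 65.1% and 81.7% (5000, 10000 and 20000 cells). For the 313 genes of chromosome 15 it was 68.7% and 79.6%, then 62.0%, 80.5% and 90.4%. Over all 6541 genes it was 61.6% and 71.0%, then 62.7%, 76.7% and 88.7%. Chromosome 14 thus trailed all genes in each of these lists, and chromosome 15 led in 4 of the 5, with 62.0% against 62.7% in the list from 5000 cells. At 10000 cells a start peak in experiment 2 alone was found for 34 genes of chromosome 14 (18.3%, against 18.2% of all genes) and 49 of chromosome 15 (15.7%), and one in experiment 1 alone for 5 and 12 genes (2.69% and 3.83%, against 3.0%). At 20000 cells the former numbered 46 (24.7%, against 18.4% of all genes) and 40 (12.8%), and the latter 1 and 6 (0.538% and 1.92%, against 0.719%).

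Genes with a start peak in all 3 lists of experiment 2 and in neither of experiment 1 numbered 9 on chromosome 14 (4.84%, against 2.32% of all genes), namely Clu, Dmtn, Ppif, Psmd6, Rtraf, Slmap, Sugt1, Tinf2 and Tkt. Their median shift was 0.27, with 8 above 0 and 1 below. For the 81 genes of the chromosome with a start peak in all 5 low-input lists it was 0.26, with 65 above and 16 below. Psmd6 was at 129 and 131 CPM in experiment 1 and 208 and 204 CPM in experiment 2, with 188 CPM at 5000 cells (0.66 ± 0.12). Tkt was at 472 and 497 against 673 and 785 CPM, with 575 CPM at 5000 cells (0.59 ± 0.11). In both genes, whose promoters with 1 and 3 GC boxes are printed above, all libraries of experiment 2 were higher. Ppif (66.2 and 61.2 against 57.3 and 75.7 CPM) and Tinf2 (12.9 and 21.3 against 15.2 and 20.2 CPM) had the same peak pattern with overlapping expression. On chromosome 15 the pattern was met by 5 genes (1.60%), Atf1, Dpys, Marchf6, Racgap1 and Tuba1b. Their median shift was 0.04, with 3 above 0 and 2 below. It was -0.23 for the 168 genes there with a start peak in all 5 low-input lists, with 35 above and 133 below. These shifts come from the contrast that chose the chromosomes, so nothing is read from their differences. Racgap1 was at 147 and 147 against 118 and 140.3 CPM (-0.19 ± 0.13, and -0.06 without the 10000-cell and -0.30 without the 20000-cell library of experiment 2) and was not called. Its start had a peak in 2 Omni-ATAC lists as well. Amhr2 on chromosome 15 had the opposite pattern, a start peak in both lists of experiment 1 and in none of experiment 2, and was at 76.3 and 59.7 against 38.9 and 51.1 CPM (1 gene, 0.319%, against 0.0764% of all genes). Amhr2 encodes the receptor of anti-Müllerian hormone.

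Protocol and cell number were also compared over the 8 lists, as a description with no test, since the low-input shares in them include those that chose the chromosomes and carry the gap between experiments. Omni-ATAC lists held 2.79% ± 0.226 of their peaks on chromosome 14 (SD, n = 3) and low-input lists 2.86% ± 0.390 (n = 5), a difference of -0.0667 percentage points that was -0.418 points with every list reduced to its 9097 widest peaks and 0.0230 without the 5000-cell list of experiment 2. On chromosome 15 the values were 5.06% ± 1.07 and 5.52% ± 0.544, a difference of -0.464 points that was -0.156 with the widest peaks and 0.114 without the Omni-ATAC list from 5000 cells. The direction on each chromosome thus turned when 1 list was left out. The cell numbers differ between the protocols, and the day of the Omni-ATAC libraries is not given in the sources used here. More cells went with a larger share in 3 of 7 pairs of lists within a series on each chromosome.

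Expression at 20000 against 10000 cells was a contrast that the choice of the chromosomes did not use. It rests on the same 4 libraries, so that each group holds both experiments. The main fit has no block, so the difference between experiments counts as spread within a group and lowers the power to call genes. edgeR's quasi-likelihood test called 0 of 411 genes on chromosome 14 and 0 of 506 on chromosome 15 (0% of 12523 genes overall) at an adjusted p under 0.05, where 5, 4 and 101 had an unadjusted p under 0.05. DESeq2 also called 0 genes overall. Median shifts were 0.01 on chromosome 14 and 0.04 on chromosome 15, and in windows they ran from -0.10 to 0.07 and from -0.18 to 0.13. With the experiment as a replicate block 4 genes were called (0.0319%), 0 of them on these chromosomes.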

How the data were processed

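ATAC and mRNA libraries of E14 cells were analysed from 8 peak lists, a unified peak list and 1 gene table. The authors deposited peaks as intervals without height or score, and gene counts as whole numbers per gene in mm10 coordinates, per the file headers. The submitters' processing notes name cutadapt, Bowtie2 2.1.0, SAMtools 1.3.1, Picard, bedtools 2.24.0, MACS2 2.1.1, STAR 2.5, featureCounts and Subread 1.5.0-p1, without their settings. Whether strand was used, how reads matching several places were treated, and how the unified list was made are not given in the sources used here. The smallest peaks are 9 bp and make up 24.4% to 59.2% of a list.

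Groups and experiment numbers came from the sample titles. CPM were computed from the deposited counts by library total. Windows ran from position 1 to the furthest end of a gene or peak (124801919 on chromosome 14 and 103899312 on chromosome 15), since no chromosome length was used. Peaks overlapped when they shared at least 1 bp. Of 24470 genes, 24467 matched RefSeq (GRCm38.p6) by gene ID and 67.0% of these had the same start.

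Differential expression used the quasi-likelihood test of edgeR 4.0.16 in R 4.3.3 (filterByExpr, TMM scaling, Benjamini-Hochberg adjustment, threshold 0.05) on the 4 libraries from 10000 and 20000 cells without a block. The 5000-cell library has no partner in experiment 1 and stayed out of the fits. The steps were tested on simulated counts. Experiment numbers pair libraries because the series' design text says that the experiments took place on different days; differences between experiments at 10000 and 20000 cells correlated with r = 0.562 over 11575 genes. No libraries were duplicates (chi-square per gene at least 10.1). Intervals are 95% Wilson intervals. Exact permutation tests of list shares by protocol and cell number were run but are not reported, since the low-input shares in them chose the chromosomes. Alternatives were DESeq2 1.42.0, scaling by RLE or by library size, other filters, blocks, log2(CPM + 1), narrower choices of peaks, covered length, other numbers of windows and leaving out each library. Python 3.11.15 with pandas 2.3.3, scipy 1.17.1 and matplotlib 3.10.9 was used.

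The chromosomes, genes and lists were chosen with earlier results of these data known. Genes named are, per chromosome, the 5 largest rises and 5 largest falls among genes of at least 10 CPM whose ranges do not overlap, the listed genes, the genes at the 3 widest regions found in all 8 lists, the 2 most abundant genes of a window, and the 2 genes on each side of the limit of 10 CPM. Genes of window 9 of chromosome 14 and the genes of the promoter classes were named after their values were seen.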

Additional observations from a re-analysis of the deposited data

Results flagged for a closer look

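In 3 windows of chromosome 15 the ratio of peak shares, experiment 2 over experiment 1, lay on different sides of 1 at the 2 cell numbers. Window 3 had 1.15 at 10000 cells and 0.898 at 20000 cells. Window 5 had 0.862 and 1.09, and window 7 had 0.915 and 1.10. Each cell number has 1 list per experiment, and the difference between cell numbers was not tested. These windows hold few genes of at least 10 CPM (4, 7 and 5), and in all 3 the Wilson intervals of the experiments overlapped at both cell numbers.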

How the results depend on the processing

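The ratio of peak shares for chromosome 14 (1.27) was 1.35 with peaks of at least 50 bp. It was 1.42 as the share of unified regions overlapped, a measure that was 1.24 over all regions together. For chromosome 15 (0.836) it was 0.794 with peaks of at least 50 bp, 0.771 with the widest peaks, 0.755 by covered base pairs, 0.852 without chromosomes 8, X and Y in the denominator and 0.811 away from transcription starts. By unified regions overlapped it reversed to 1.16, where all regions together had 1.24. The percentage of windows in which experiment 2 was higher at both cell numbers on chromosome 14 (100) was 90.0 to 100 under the alternatives, and that in which it was lower on chromosome 15 (70.0) was 50.0 (widest peaks) to 100 (5 windows). The median shift of chromosome 14 (0.19) was 0.20 with DESeq2, 0.21 without a filter, 0.18 with a filter of 10 CPM, 0.17 for genes of at least 1 CPM or by log2(CPM + 1), and 0.20 to 0.22 with 1 library left out. With cell number as replicate block it was 0.18. Calls without 1 library numbered 22 to 52 (chromosome 14, higher), 50 to 83 (chromosome 15, lower) and 803 to 1817 (all genes, from 1567). The count over all genes moved by over 1.5 times without the 10000-cell library of experiment 1 (1018), the 10000-cell library of experiment 2 (803) and the 20000-cell library of experiment 2 (869). For 20000 against 10000 cells, 2 genes were called without a filter and 4 with the experiment as replicate block, from 0; the median shift without 1 library was -0.10 to 0.13 on chromosome 14 and -0.10 to 0.18 on chromosome 15. Peaks of experiment 2 without a counterpart on chromosome 14 (63.9% over both cell numbers) were 65.0% with an overlap of 50% of the shorter peak and 67.2% with peaks of at least 50 bp. Peaks of experiment 1 without one on chromosome 15 (27.1%) fell to 14.9% with peaks of at least 50 bp. The difference of Omni-ATAC from low-input was -0.339 points (peaks of at least 50 bp) and -0.418 (widest peaks) on chromosome 14, from -0.0667, and -0.533 and -0.156 on chromosome 15, from -0.464. Without 1 list, the difference of Omni-ATAC from low-input ran from -0.197 to 0.0230 points on chromosome 14 and from -0.936 to 0.114 on chromosome 15, where it turned without the Omni-ATAC list from 5000 cells, and pairs in which the share went up with cell number from 1 to 3. With peaks of at least 50 bp there were 4 such pairs on chromosome 14. The cause of these changes was not tested. Of 774 values of 79 named genes under the alternatives, 723 stayed within 1 SE and 0 called values turned. Read depth of the ATAC libraries is unknown, so shares in windows with few peaks are known only within their intervals.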
